A study of Mus musculus with 6 samples.

Results

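The 81 genes described here are the growth factors, receptors and antagonists of the PDGF, FGF, VEGF, Wnt, Frizzled, LGR, R-spondin, Dickkopf, SFRP, BMP, TGF-beta, IGF and GDF families, as measured on an expression array in NIT-1 cells with and without cadmium. Members were found by the first letters of the gene symbol, among 18972 genes that each had a transcript cluster annotated with 1 gene, and the brightest cluster stood for a gene. By role, 40 members were ligands, 18 were receptors or receptor subunits, 8 were secreted antagonists or binding proteins, and 15 carried a family prefix without being a classical ligand, receptor or antagonist (for example Igf2bp3, an RNA-binding protein, and Fgf2os, an opposite-strand transcript). No gene for a signalling PDGF receptor was among the members, since the only symbol of that kind was Pdgfrl, a PDGF receptor-like gene. Of 137 protein-coding genes with these prefixes in RefSeq, 59 were not analysed here, Vegfa, Bmp4 and Gdf15 among them.

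NIT-1 is an established mouse pancreatic beta cell line, derived from an insulinoma of a NOD mouse that carried a simian virus large T antigen transgene driven by an insulin promoter. The control group was 3 cultures kept in culture medium with fetal bovine serum, penicillin and streptomycin, without cadmium, and the cadmium group was 3 cultures given CdSO4 (cadmium sulphate) at 4 µmol/L for 24 hours. Cells of both groups had first been in 6-well plates for 24 hours. The labels call the arrays of a group biological replicates without saying whether they came from separate passages, and the p-values therefore cover the variation among these particular cultures, which may be technical. The comparison asks which of these signalling genes differed in transcript level after exposure of beta cells to a toxic metal at a dose the study chose to cause oxidative damage.

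PDGF, FGF, VEGF and IGF ligands bind receptors that are tyrosine kinases, whereas BMP, GDF and TGF-beta ligands bind pairs of serine/threonine kinase receptors that act through SMAD proteins. Wnt ligands bind Frizzled receptors with the co-receptors Lrp5 and Lrp6, R-spondins bound to LGR receptors prolong the life of Frizzled at the cell surface, and Dickkopf and SFRP proteins counter Wnt signalling. In the pancreas these pathways are known for their parts in organ growth, islet vascularisation and beta cell proliferation.

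Signals were the authors' normalised values, read here as log2, and a level was called above background where a group mean exceeded 6.18, the 95th percentile of the negative control probes averaged over the 6 arrays (6.12 to 6.25 by array). Array medians ran from 3.34 to 3.35 in control and from 3.39 to 3.40 in cadmium, with cadmium higher by 0.05 on average. Precision is limited by having 3 arrays a group. Correlations between arrays were 0.995 to 0.997 within groups and 0.987 to 0.991 between them, and the first principal component (61.2% of the variance) separated the groups. On the second component (15.6%) control 3 and cadmium 1 lay together at scores of -12.38 and -11.61, whereas the remaining 4 arrays scored 5.56 to 6.30. None of 7 measured beta cell markers was above background in either group: Ins2, the insulin gene, read 5.27 ± 0.10 in control and 5.29 ± 0.04 in cadmium (SD, n = 3), so these arrays do not show the labelled cell type by its markers. The summed signal of those markers was 6.94 to 7.06 in control and 7.06 to 7.08 in cadmium (log2). Markers of endothelial cells (0 of 4 passed), immune cells (0 of 2) and other islet cells (0 of 2) were also below background.

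With cadmium, 8 members fell and 6 rose, and the 4 largest changes were falls. The PDGF ligand Pdgfc, the R-spondin receptor Lgr4, the FGF ligand Fgf16 and the VEGF-family ligand Vegfd each lost more than 1 log2 unit, whereas none of the 6 that rose gained more than 0.43. The other members that fell were the ligand Bmp2, its type II receptor Bmpr2, the TGF-beta type I receptor Tgfbr1 and the Dickkopf-family gene Dkk3. Those that rose were Fgf2, the receptors Fzd9 and Bmpr1b, and Tgfb1i1, Dkkl1 and Tgfbrap1, which carry a family prefix without being a ligand or receptor. The remaining 67 did not pass limma's moderated test (adjusted p under 0.05, Benjamini-Hochberg over all genes tested).

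The 14 members that passed were 17.3% of 81, against 12.2% of all genes tested. Members were brighter than genes in general, with a median signal of 4.87 against 4.16. The part of signal level in this and the following shares was not tested. By direction, 7.41% of members rose against 6.47% of all genes, and 9.88% fell against 5.72%. Falls of at least 1 log2 unit that passed the test made up 4.94% of the members (4 genes) and 0.127% of all genes (24 genes). The members were chosen with earlier results of these data known, and Pdgfc, Lgr4 and Fgf16 were named beforehand. These shares therefore describe the set and do not test it. The median change of the members was 0.04, the same to this rounding as that of all genes, and 53 of the 81 changes (65.4%) were above 0, against 62.6% of all genes. With each array centred on its median, the median change was -0.001 for members and 0.004 for all genes. Arrays of the groups did not overlap for 18 members that were higher and 10 that were lower; over all genes 35.9% did not overlap, 22.9% higher and 13.0% lower. Centring each array on its median left 8 lower and 4 higher members (33.3% higher among those past the threshold, against 42.9% as deposited), and over all genes moved the share of higher calls from 53.0% to 38.0%. The count of higher members moved with single arrays. It was 0 without cadmium 2 (14 at an unadjusted p under 0.05 in the same limma fit). It was 1 without control 1, without control 2 or without cadmium 3. The count of lower members stayed between 6 and 9. Over all genes the higher calls went from 1227 to 609, 611, 609 and 627 without control 1, control 2, cadmium 2 and cadmium 3. The lower calls went from 1086 to 582, 531, 542 and 554 in those fits. With control 3 and cadmium 1 both left out, an alternative chosen after the data were seen, 7 members were higher and 10 were lower, among them 4 of the 6 and all 8 above.

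**Figure D1:**
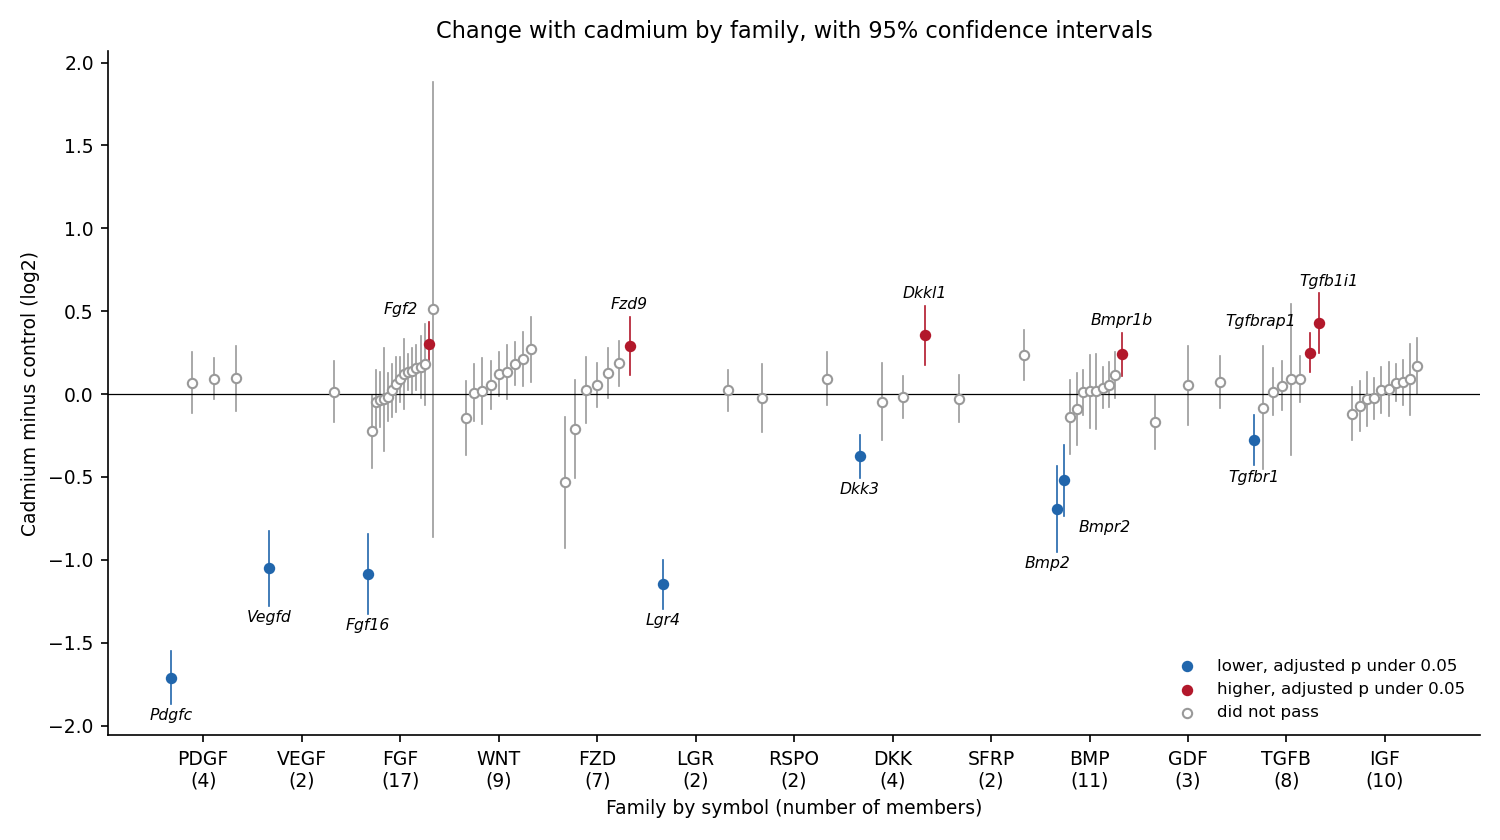
Change of every member with cadmium (cadmium minus control, log2, vertical axis) with its 95% confidence interval from limma, grouped by family along the horizontal axis; filled points passed an adjusted p of 0.05 and open points did not. Most members lie near 0, and Pdgfc, Lgr4, Fgf16 and Vegfd lie lowest, at -1.71, -1.15, -1.09 and -1.05.

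Promoter windows of Pdgfc, Lgr4 and Vegfd, the members with large falls that have an entry, and of Fgf2, the ligand that rose, are shown because these members moved furthest or in the opposite direction. Each runs from 250 bases before to 50 bases after the start of the gene on the plus strand, from RefSeq on GRCm38.p6. They lie at chr3:81036166-81036465 (Pdgfc), chr2:109917397-109917696 (Lgr4), chrX:164373272-164373571 (Vegfd) and chr3:37348403-37348702 (Fgf2). Capitals mark the motifs searched on both strands that are known from responses to metals, oxidants, heat and low oxygen: the metal response element core (TGCACNC or TGCGCNC), the antioxidant response element (TGACNNNGC), the heat shock element pair (GAANNTTC) and the hypoxia response element core (ACGTG), and also the TCF/LEF site of Wnt targets (ATCAAAG or AACAAAG).
Pdgfc: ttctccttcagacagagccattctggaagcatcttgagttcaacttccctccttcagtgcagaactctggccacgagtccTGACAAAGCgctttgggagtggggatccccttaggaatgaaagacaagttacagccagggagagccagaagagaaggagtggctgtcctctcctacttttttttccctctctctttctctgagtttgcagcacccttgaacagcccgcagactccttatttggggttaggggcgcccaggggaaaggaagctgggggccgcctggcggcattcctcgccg
Lgr4: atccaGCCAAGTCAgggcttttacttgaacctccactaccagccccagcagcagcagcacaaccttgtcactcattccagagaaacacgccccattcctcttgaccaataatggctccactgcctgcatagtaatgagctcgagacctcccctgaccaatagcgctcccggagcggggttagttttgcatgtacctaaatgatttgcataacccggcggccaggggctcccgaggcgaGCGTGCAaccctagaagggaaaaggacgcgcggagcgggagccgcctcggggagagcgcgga
Vegfd: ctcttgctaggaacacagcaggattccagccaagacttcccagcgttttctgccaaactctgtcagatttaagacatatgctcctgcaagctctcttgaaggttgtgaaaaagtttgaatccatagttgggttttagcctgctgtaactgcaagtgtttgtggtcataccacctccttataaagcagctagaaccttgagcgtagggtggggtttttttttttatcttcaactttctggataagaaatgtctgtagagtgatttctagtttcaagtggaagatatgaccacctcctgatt
Fgf2: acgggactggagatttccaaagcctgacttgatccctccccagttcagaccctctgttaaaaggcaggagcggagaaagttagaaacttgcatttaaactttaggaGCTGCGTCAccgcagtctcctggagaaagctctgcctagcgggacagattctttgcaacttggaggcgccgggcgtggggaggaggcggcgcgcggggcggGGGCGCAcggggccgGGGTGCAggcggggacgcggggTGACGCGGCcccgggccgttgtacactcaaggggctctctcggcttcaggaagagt

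The Pdgfc window held 1 antioxidant response element, and that of Lgr4 held 1 antioxidant response element and 1 metal response element core. The Fgf2 window held 2 of each, and none of these letters was found in the window of Vegfd. An antioxidant response element was present in 22.8% of the 79 windows of 62 members and in 12.4% of all 32851 promoters in the table. The metal response element core was present in 35.4% and 25.7%. The member windows were richer in G and C (median 62.7%) than all promoters (52.7%), and the part of base composition in these shares was not tested. The TCF/LEF site was in 10.1% of member windows and 9.33% of all promoters, the heat shock element pair in 10.1% and 7.86%, and the hypoxia core in 22.8% and 19.6%. A match of letters is a description and not a binding site.

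Among the ligands, 4 of 40 fell (10%, against 5.72% of all genes) and 1 rose (2.5%, against 6.47%). Pdgfc encodes a PDGF that is activated by removal of its CUB domain and binds PDGF receptor alpha, and it is measured by the cluster TC0300000631.mm.1. Its signal was 7.72, 7.74 and 7.77 in the control arrays and 6.15, 6.03 and 5.92 in the cadmium arrays. Every control array was well above every cadmium array, and the cadmium mean lay below the background bound. The mean went from 7.74 ± 0.02 to 6.03 ± 0.12 (SD, n = 3), a difference of -1.71 (SE 0.07, adjusted p = 0.000206), which is at least 2.98-fold lower. For such a limit each array of the dimmer group was set to its own background bound, or to its own signal where that was higher, and the fold was rounded down. This was also the lowest change among all 18972 genes. The other PDGF ligands did not pass: Pdgfa was 6.16 in control and 6.26 in cadmium (adjusted p = 0.281), and Pdgfd was 2.43 and 2.50, far below background.

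Fgf16 encodes a secreted FGF of the Fgf9 subfamily, known for its part in heart development. It read 6.90, 7.24 and 7.11 in control and 6.08, 6.06 and 5.85 in cadmium. The groups did not overlap, and only the control mean was above background. The difference was -1.09 (SE 0.10, adjusted p = 0.00149), from 7.08 ± 0.17 to 6.00 ± 0.13, or at least 1.88-fold lower. Fgf2, basic FGF, was the only ligand that rose. Its arrays read 3.72, 3.65 and 3.60 in control and 3.99, 3.99 and 3.90 in cadmium, so that all 6 values were far below background and no fold is given. Its change of 0.30 (SE 0.06, adjusted p = 0.0159) did not pass without control 2 (adjusted p = 0.0638), without cadmium 2 (0.0642), or with control 3 and cadmium 1 both left out (0.0545). None of the other 8 FGF ligands passed.

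Vegfd, listed on the platform under its older name Figf, encodes a ligand of the lymphatic receptor VEGFR-3. Control arrays read 7.58, 7.64 and 7.34, and cadmium arrays read 6.33, 6.56 and 6.51. The highest cadmium array was below the lowest control array, and both group means were above background. The mean fell from 7.52 ± 0.16 to 6.47 ± 0.12, a difference of -1.05 (SE 0.10, adjusted p = 0.00149) or 2.07-fold. Vegfc, the other ligand of that receptor, stayed below background at 4.55 and 4.57, with an interval of the change from -0.17 to 0.20 (adjusted p = 0.921).

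Bmp2, a ligand of the BMP receptors, read 6.17, 6.16 and 5.80 in control and 5.29, 5.29 and 5.46 in cadmium. The groups did not overlap, although both means were below background, so the size has no fold. The change was -0.69 (SE 0.11, adjusted p = 0.00902). The other 7 BMP ligands measured (Bmp3, Bmp5, Bmp7, Bmp8a, Bmp8b, Bmp10 and Bmp15) did not pass.

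**Figure D2:**
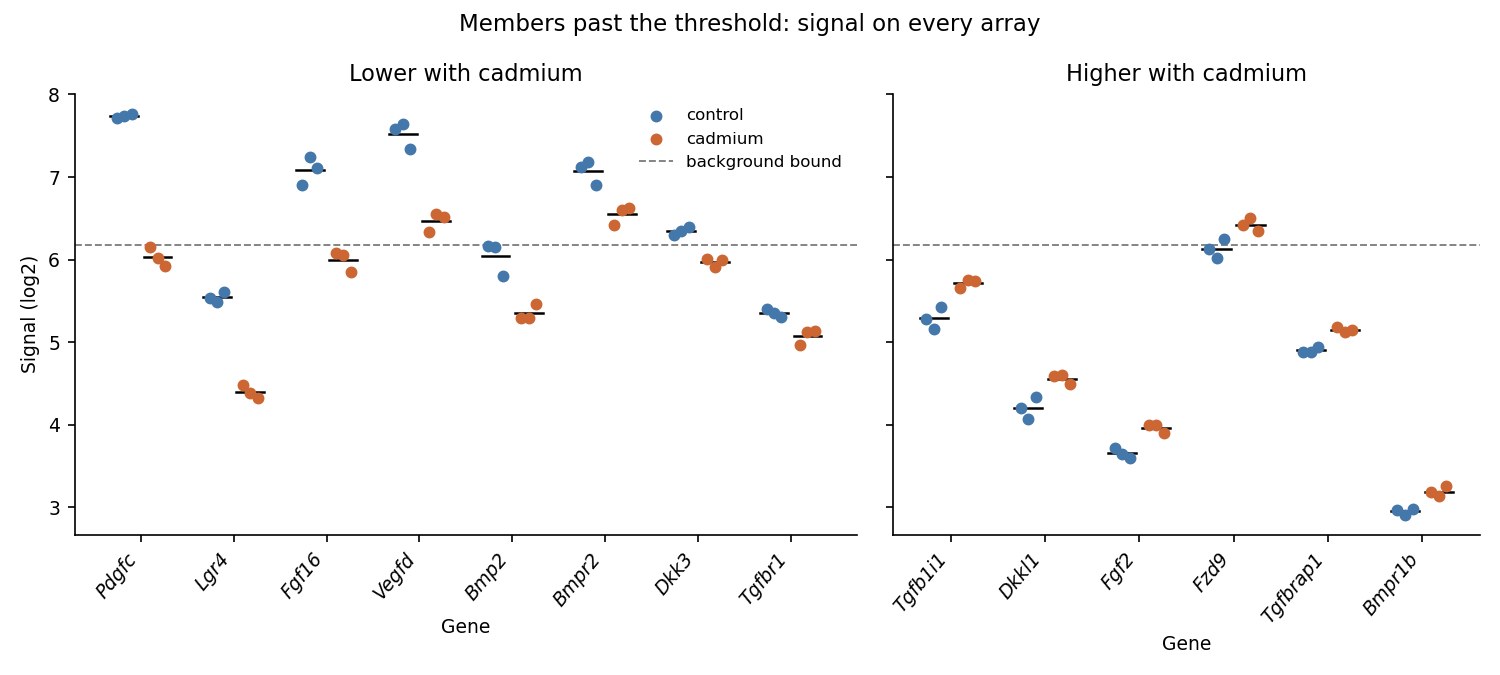
Signal (log2, vertical axis) of each member that passed the threshold on the 3 control and 3 cadmium arrays, 1 point per array, with black bars at the group means and the background bound as a dashed line. For Pdgfc, Fgf16 and Vegfd the control points lie above the bound and above every cadmium point, whereas the members that rose have groups closer together, most of them below the bound.

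Among the receptors, 3 of 18 fell (16.7%, against 5.72% of all genes) and 2 rose (11.1%, against 6.47%). The receptors had a median signal of 5.46, against 4.16 for all genes. Lgr4 encodes a cell surface receptor for R-spondins. Its arrays read 5.54, 5.49 and 5.61 in control and 4.49, 4.39 and 4.33 in cadmium. The groups were separated by about 1 log2 unit, with all 6 arrays below background. The means were 5.55 ± 0.06 and 4.40 ± 0.08, a difference of -1.15 (SE 0.06, adjusted p = 0.000848). The related Lgr6 read 4.86 in control and 4.88 in cadmium and did not pass (adjusted p = 0.804).

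Bmpr2, the type II receptor for BMP ligands, read 7.13, 7.18 and 6.90 in control and 6.42, 6.61 and 6.62 in cadmium. Both groups were above background and did not overlap. It fell by 0.52 (SE 0.09, adjusted p = 0.0126), or 1.43-fold, and did not pass without control 1 (adjusted p = 0.0539) or without control 2 (0.0509). Bmpr1b, a type I receptor for BMP and GDF ligands, went the other way at a very low signal, with 2.97, 2.91 and 2.98 in control and 3.18, 3.13 and 3.26 in cadmium. Its change of 0.24 (SE 0.06, adjusted p = 0.0331) passed in no fit that left out 1 array (highest adjusted p 0.117) and was lost with centring or quantile normalisation. Tgfbr1, the type I receptor for TGF-beta, read 5.40, 5.35 and 5.31 in control and 4.97, 5.12 and 5.14 in cadmium, below background throughout. Its change of -0.28 (SE 0.06, adjusted p = 0.0338) passed in none of the 6 fits that left out 1 array (adjusted p 0.0501 to 0.113), but passed with control 3 and cadmium 1 both left out (0.0412). Tgfbr2 and Tgfbr3, the type II receptor and the betaglycan co-receptor, did not pass (adjusted p = 0.343 and 0.63).

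Of 6 Frizzled receptors, Fzd9 was the only one that passed. It read 6.13, 6.02 and 6.25 in control and 6.42, 6.50 and 6.35 in cadmium, close groups that did not overlap, with the cadmium mean above the bound and the control mean below it. The change was 0.29 (SE 0.07, adjusted p = 0.0458), at least 1.15-fold. It passed without control 3 but not without any other single array (highest adjusted p 0.14), nor with centring. Fzd7 was 5.70 in control and 5.83 in cadmium (adjusted p = 0.24), and Fzd5 was 6.20 and 5.99 (adjusted p = 0.316). None of the 4 FGF receptor genes passed: Fgfr1 was 5.41 in control and 5.57 in cadmium (adjusted p = 0.12), Fgfr2 was 3.86 and 4.00 (0.108), and Fgfrl1, which lacks the kinase domain, was 6.87 and 6.64 (0.163). Igf1r, the receptor for insulin-like growth factors, read 5.39, 5.40 and 5.58 in control and 5.41, 5.38 and 5.38 in cadmium, with an interval of the change from -0.22 to 0.08 (adjusted p = 0.514).

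Of the 8 antagonists and binding proteins, Dkk3 passed (12.5%, against 12.2% of all genes). Dkk3 is the divergent Dickkopf-family member, whose action on Wnt signalling is less clear than that of its relatives. Control arrays read 6.30, 6.34 and 6.40, and cadmium arrays read 6.01, 5.91 and 6.00. The groups did not overlap, with control above the bound and cadmium under it. The change was -0.37 (SE 0.06, adjusted p = 0.00673), at least 1.13-fold lower. Dkk2, Dkk4, Sfrp1 and the IGF binding proteins Igfbp2, Igfbp5 and Igfbp7 did not pass. Sfrp2, a secreted Frizzled-related inhibitor, read 5.03, 5.15 and 5.16 in control and 5.37, 5.27 and 5.42 in cadmium. Its groups did not overlap and its change of 0.24 had an adjusted p of 0.0585. It passed with a filter at the median level of all genes, with limma's trend and robust options, and with array weights. It did not pass with centring (adjusted p = 0.108), quantile normalisation (0.0683) or the replicate block (0.11). Nor did it pass in any fit that left out 1 array (highest adjusted p 0.165).

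Of the 6 members that rose, 3 carried a family prefix without being a classical ligand, receptor or antagonist. Tgfb1i1, a focal adhesion adaptor also known as Hic-5, read 5.28, 5.16 and 5.43 in control and 5.66, 5.76 and 5.74 in cadmium. The change was 0.43 (SE 0.08, adjusted p = 0.0139), and it did not pass without control 1, cadmium 2 or cadmium 3 (highest adjusted p 0.059). Dkkl1, a Dickkopf-like gene known from sperm, read 4.20, 4.08 and 4.33 in control and 4.59, 4.60 and 4.49 in cadmium. Groups did not overlap for either gene, and all arrays were below background. The change of Dkkl1 was 0.36 (SE 0.08, adjusted p = 0.0264), which passed without control 3 but not without any other single array (highest adjusted p 0.094). Tgfbrap1, which encodes a protein that binds TGF-beta receptors and takes part in endosome tethering, read 4.88, 4.88 and 4.95 in control and 5.18, 5.13 and 5.15 in cadmium. Its change of 0.25 (SE 0.05, adjusted p = 0.0191) did not pass without control 1, control 2, cadmium 2 or cadmium 3 (highest adjusted p 0.0783).

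In 5 families no member passed limma's adjusted threshold; as the background for the counts that follow, 29.0% of all genes had an unadjusted p under 0.05 (17.6% of all genes higher and the rest lower). All 9 Wnt ligands measured were below background in both groups. Of their changes, 8 were above 0 (88.9%, against 62.6% of all genes), with a median of 0.12. An unadjusted p under 0.05 was reached by 3 (33.3%), all higher. The brightest, Wnt5b, read 5.31, 5.43 and 5.29 in control and 5.46, 5.55 and 5.66 in cadmium (change 0.21, adjusted p = 0.0916). Wnt7a and Wnt2 had changes of 0.27 and 0.18 (adjusted p = 0.0804 and 0.0747). Of the 10 genes with the IGF prefix, 1 had an unadjusted p under 0.05, and Igf2, the imprinted ligand, was 5.10 in control and 5.08 in cadmium, with an interval of the change from -0.15 to 0.10 (adjusted p = 0.786). Of the 3 GDF ligands 1 had an unadjusted p under 0.05: Gdf5, a ligand known for joint formation, was 5.34 in control and 5.17 in cadmium (adjusted p = 0.15). No R-spondin of 2 had one, and Rspo1, which binds LGR receptors, was 5.76 and 5.73 (adjusted p = 0.885). Of the 2 SFRP genes 1 had one, Sfrp2, given above.

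Level set limits on what could be compared. A group mean above background was reached by 11 of the 81 members (13.6%, against 13.0% of all genes) and in both groups by 4: Vegfd, Bmpr2, Fgf21 and Fgfrl1. For Fgf21 the control mean was above the bound only through control 3, at 7.74, with the other controls at 5.40 and 5.58. Of the 14 members that passed, 6 had a level above background in at least 1 group. In RNA from whole cultures, fewer cells that express a gene and less of its RNA per cell cannot be told apart. Of 3 stromal markers, 1 fell: Col3a1, a fibrillar collagen gene, went from 9.07 ± 0.13 to 8.06 ± 0.17 (SD, n = 3, adjusted p = 0.00183), whereas Col1a2 and Thy1 did not pass (adjusted p = 0.675 and 0.703) and were below background in both groups. The summed signal of the 3, most of it from Col3a1, was 9.15 to 9.36 in control and 8.22 to 8.54 in cadmium (log2). Of 3 acinar and ductal markers, Ctrb1 rose (change 0.27, adjusted p = 0.03), whereas Cpa1 and Prss1 did not pass (adjusted p = 0.0619 and 0.883). Each of the 3 was below background in both groups. Their summed signal was 5.98 to 6.02 in control and 6.15 to 6.24 in cadmium. The part of these markers in the members' changes was not tested.

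**Figure D3:**
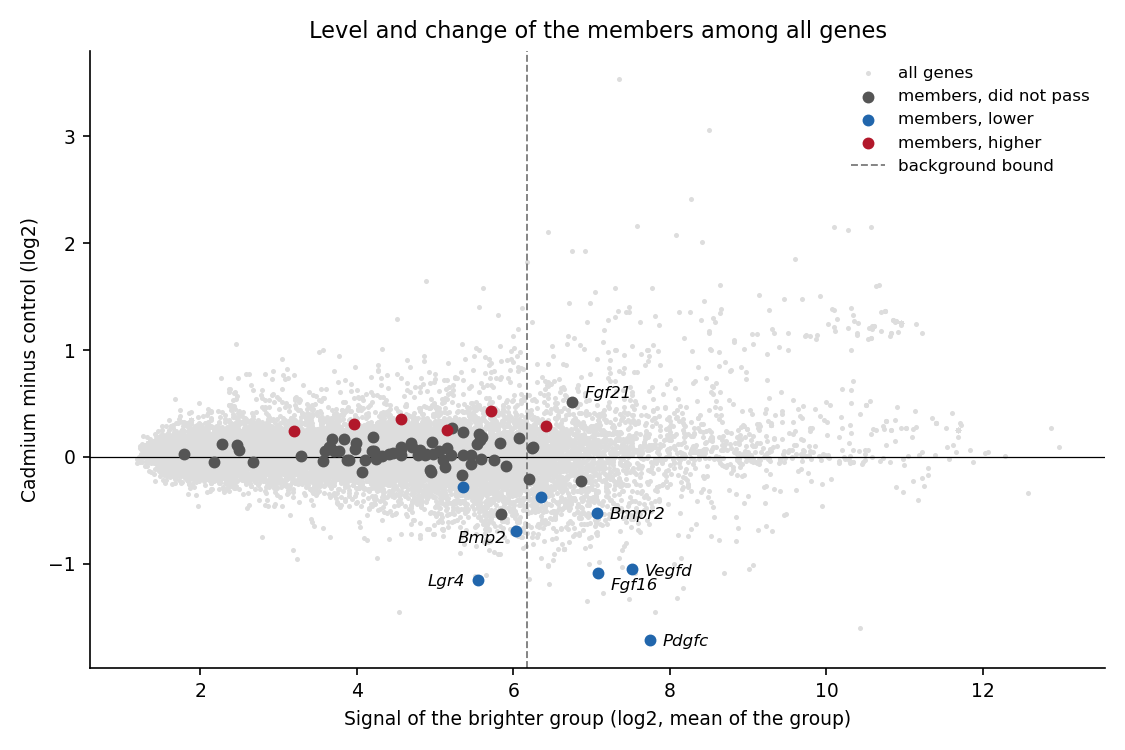
Change with cadmium (cadmium minus control, log2, vertical axis) against the signal of the brighter group (log2, horizontal axis) for all genes in grey and the members in colour, with the background bound as a dashed vertical line. Pdgfc, Fgf16 and Vegfd lie to the right of the bound at the lower edge of the cloud, and Lgr4 lies to its left.

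Some members varied widely between replicates. Fgf21, an endocrine FGF that acts with beta-Klotho and was chosen for its spread after its values were seen, read 5.40, 5.58 and 7.74 in control and 6.33, 7.00 and 6.92 in cadmium. Control 3 was the highest of all 6 arrays while the other controls were the lowest. Its residual SD of 0.95 was the largest of all 18972 genes, and the change of 0.51 had an interval from -0.86 to 1.88 (adjusted p = 0.602). Without control 3 the change was 1.26 (adjusted p = 0.0151), and with cadmium 1 left out as well it was 1.47 (adjusted p = 0.00147). Without any other array it was 0.09 to 0.72 and did not pass. Tgfb1, the first TGF-beta ligand, read 6.34, 6.28 and 5.84 in control and 5.85, 6.50 and 6.38 in cadmium. Its low arrays were control 3 and cadmium 1, the arrays that stand apart on the second component, and the interval of its change was -0.37 to 0.55 (adjusted p = 0.804). Tgfb2 was low on the same arrays, at 5.65 in control 3 and 5.54 in cadmium 1 against 5.91 to 6.10 on the others. Fzd4, also chosen after its values were seen, read 5.56, 5.69 and 6.26 in control and 5.34, 5.35 and 5.22 in cadmium. Its groups did not overlap, and its change of -0.53 (adjusted p = 0.0865) was -0.32 without control 3 (adjusted p = 0.0398) and -0.34 with cadmium 1 left out as well (0.0504); it passed in no other fit that left out 1 array.

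**Figure D4:**
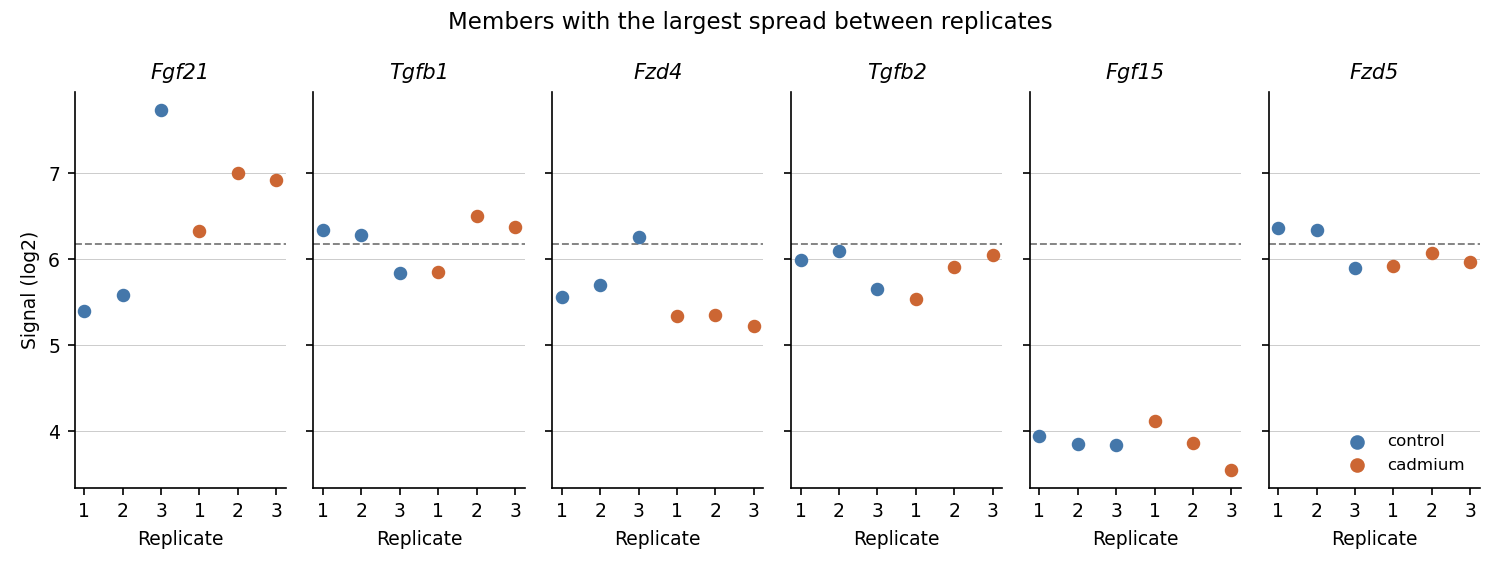
Signal (log2, vertical axis) on each control and cadmium array for the 6 members with the largest residual SD between replicates, 1 point per array, with the background bound as a dashed line. In the Fgf21 panel control 3 lies at 7.74 while the other controls lie at 5.40 and 5.58.

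Other genes of these pathways were read from 9 lists of receptors, intracellular components, targets and further growth factors, of which 120 of 230 genes were measured. In all, 10 fell and 4 rose (8.33% and 3.33%, against 5.72% and 6.47% of all genes), and the median change of the 120 was 0.04, as for all genes. A group mean above background was reached by 20 of the 120 (16.7%, against 13.0% of all genes). Of those that fell or rose, Wls, Tle1, Ascl2, Bmper, Chrdl1, Insr, Pik3cb, Flrt3 and Mdk were below background in both groups. Of 11 Wnt receptors and modulators 2 fell (18.2%, against 5.72% of all genes) and none rose (median -0.05). Lrp6, the co-receptor that Wnt ligands share with Frizzled, read 6.71, 6.72 and 6.52 in control and 5.77, 5.81 and 5.79 in cadmium. The groups were far apart relative to their spread, and the change was -0.86 (SE 0.07, adjusted p = 0.00149), at least 1.39-fold lower. Wls, which carries Wnt ligands to the cell surface, was 5.74 ± 0.09 in control and 5.13 ± 0.17 in cadmium, both below background, a change of -0.62 (adjusted p = 0.00814). Of 15 intracellular Wnt components 2 fell (13.3%, against 5.72% of all genes, median -0.03). These were Vangl1, a planar polarity protein, from 6.62 to 6.21 (adjusted p = 0.0142), and Tle1, a co-repressor, from 4.81 to 4.53 (0.0136). Neither passed in 4 of the 6 fits that left out an array, those without control 1, control 2, cadmium 2 or cadmium 3, with adjusted p up to 0.0591 and 0.0608. Of 4 Wnt target genes measured, 1 rose (25%, against 6.47% of all genes, median of the list 0.19). This was Ascl2, a transcription factor gene, which went from 4.93 to 5.23 (adjusted p = 0.0255). It passed without cadmium 1 but not without any other single array (highest adjusted p 0.0918).

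Among 23 receptors, SMADs and antagonists of the BMP and TGF-beta pathways outside the families above, 1 fell and 2 rose (median 0.03). These are 4.35% and 8.70%, against 5.72% and 6.47% of all genes. Acvr2a, an activin type II receptor that also binds BMP ligands, read 6.43, 6.49 and 6.48 in control and 5.84, 5.96 and 5.87 in cadmium. Its groups did not overlap, and it fell by 0.57 (SE 0.05, adjusted p = 0.00149), at least 1.23-fold. Bmper, a secreted BMP-binding protein, rose from 4.32 ± 0.04 to 4.74 ± 0.08 (adjusted p = 0.00562). Chrdl1, a chordin-like BMP antagonist, rose from 3.27 to 3.54 (adjusted p = 0.0177) but did not pass without control 1, cadmium 2 or cadmium 3 (highest adjusted p 0.071), nor with control 3 and cadmium 1 both left out (0.0518). None of the 6 BMP and TGF-beta target genes measured passed, against 12.2% of all genes. None had an unadjusted p under 0.05 in the limma fit, against 29.0% of all genes. Id1, a direct BMP target, was 7.61 in control and 7.35 in cadmium (adjusted p = 0.224).

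Of 15 insulin and IGF signalling genes 4 fell (26.7%, against 5.72% of all genes) and none rose, with a median of -0.12. The median signal of this list was 5.31, against 4.16 for all genes, and the part of level in its share was not tested. Insr, the insulin receptor, went from 5.56 ± 0.08 to 5.05 ± 0.09 (change -0.52, adjusted p = 0.00408), below background. Sorl1, a sorting receptor, fell by 0.43 from 7.27 ± 0.05 to 6.84 ± 0.03 (adjusted p = 0.00292), or 1.34-fold. Pik3ca and Pik3cb, catalytic subunits of phosphoinositide 3-kinase, fell by 0.50 and 0.25 (adjusted p = 0.0135 and 0.0219). Pik3ca did not pass without cadmium 2 or cadmium 3 (highest adjusted p 0.0577), and Pik3cb did not pass without control 1, control 2, cadmium 2 or cadmium 3 (highest 0.082). Insr was also the only one of 20 VEGF receptors and other receptor tyrosine kinases to pass (5%, against 12.2% of all genes, median 0.05). Of 9 FGF co-receptors, adaptors and feedback genes (median 0.05), 1 fell (11.1%, against 5.72% of all genes). This was Flrt3, a membrane protein that binds FGF receptors, which went from 4.49 to 3.95 (adjusted p = 0.0115). It did not pass without cadmium 2 (0.0518). Of 19 other growth factors (median 0.08), 1 rose (5.26%, against 6.47% of all genes). This was Mdk, encoding midkine, which went from 5.31 to 5.55 (adjusted p = 0.0276). Mdk passed in no fit that left out 1 array (highest 0.104). Nor did it pass with centring, with the replicate block, or with control 3 and cadmium 1 both left out. Without cadmium 2 the lists had 5 genes lower and without cadmium 3 they had 6. The higher count of 4 went to 1 without control 1, cadmium 2 or cadmium 3, to 2 without control 2 or control 3, and to 8 without cadmium 1.

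**Figure D5:**
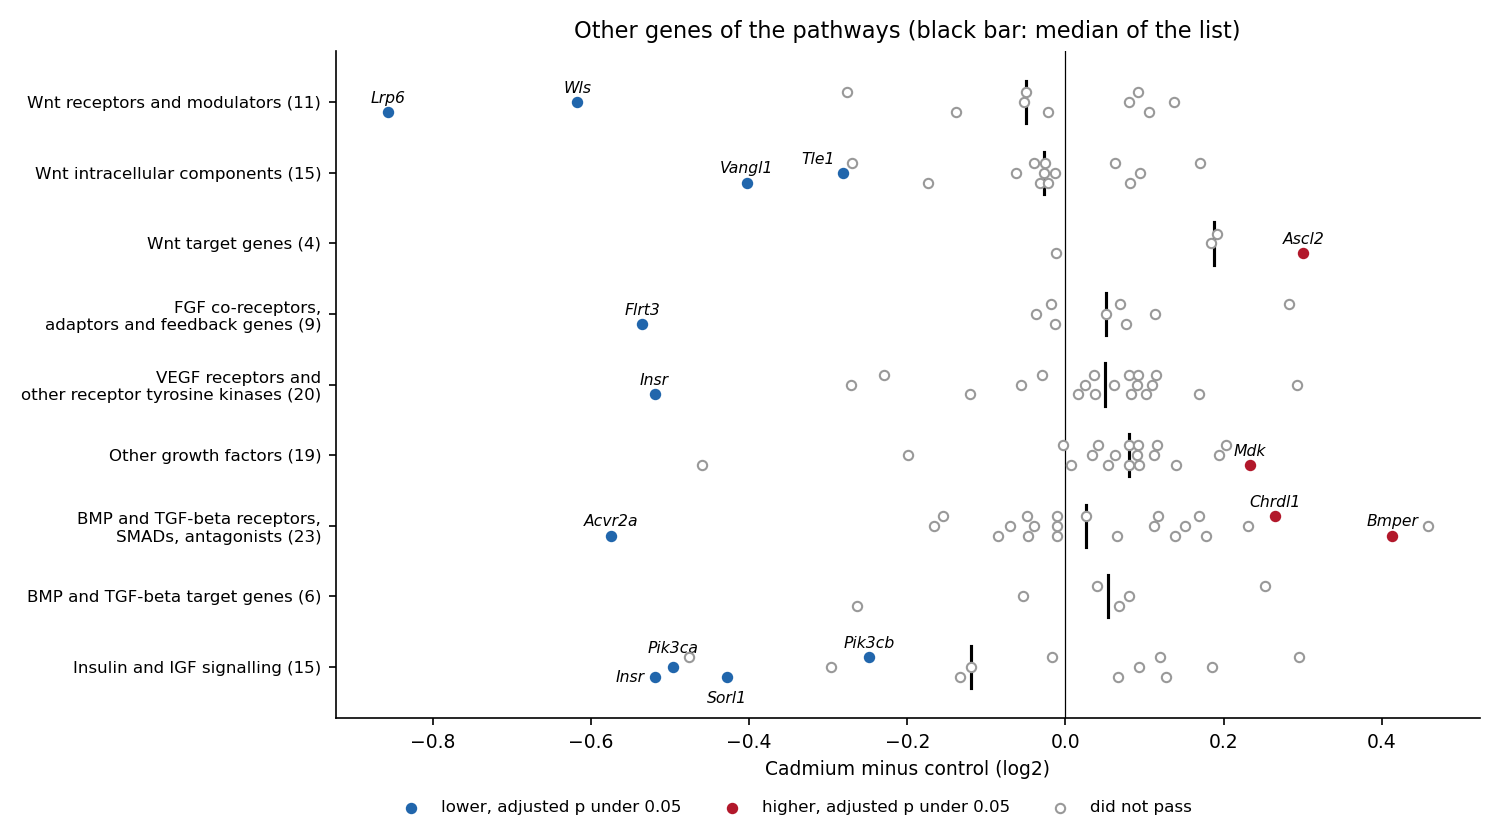
Change with cadmium (cadmium minus control, log2, horizontal axis) of the measured genes in the 9 lists of pathway genes, 1 point per gene, filled where the adjusted p was under 0.05, with a black bar at the median of each list. Lrp6 at -0.86 and Wls at -0.62 are the lowest points, and the medians of the lists lie between -0.12 and 0.19.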

How the data were processed

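Total RNA of 6 NIT-1 cultures, 3 per group, was labelled with biotin and hybridised to a mouse expression array, 1 array per culture. The deposited table holds the authors' values for 46478 rows, read here as log2 from their range, since no label or header states the base. The software and the normalisation were not given in the sources used. Of its rows, 6732 are control probes (5222 of them negative controls). Of 39746 transcript clusters, 19205 carry 1 gene in the platform annotation, 940 several and 19601 none. Clusters with several genes or none were not used here. Repeated symbols and synonyms of 1 gene were joined through RefSeq, which updated the symbols of 2 members. Where a gene had several clusters the brightest was kept, which left 18972 genes.

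Groups were compared on the deposited log2 values in limma 3.58.1 (R 4.3.3, lmFit and eBayes, group only, two-sided) with Benjamini-Hochberg adjustment over all of these genes and a threshold of 0.05. The code was tested on simulated data. A fold is given only where both means exceed the background bound, and "at least" where 1 does, with each array of the dimmer group held at its own bound or its higher signal. Values are named for each member past the threshold, the brightest member of each family, and Pdgfc, Lgr4, Fgf16, Igf1r, Igf2, Tgfb1 and Fzd7, and for up to 4 genes past the threshold per list. Other genes with values were chosen after these were seen. Members and lists were chosen with earlier results of these data known, so their counts are descriptions. Promoters were matched by symbol to RefSeq (62 of 81 members). Alternatives were centring, quantile normalisation, level filters, the mean of a gene's probes, eBayes with trend and robust, array weights, a replicate block, stricter tests and leaving out arrays.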

Additional observations from a re-analysis of the deposited data

How the results depend on the processing

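Over the alternatives run, the 14 members past the threshold kept direction and call in 166 cases, kept the direction but lost the call in 62 and reversed in none. Pdgfc, Lgr4, Fgf16 and Vegfd kept their calls in every alternative that tested them. With genes above background only, the 6 higher and 8 lower members became 1 and 5, because that filter removed the others before testing. The 6 and 8 became 0 and 4 against a minimum change of 1.2-fold (1 and 7 at an unadjusted p under 0.05). They became 0 and 6 at an adjusted p under 0.01 (limma, with 14 and 11 unadjusted). Leaving out 1 array gave 0 to 6 higher and 6 to 9 lower. The 4 higher and 10 lower list genes became 0 and 5 above background (0 and 8 unadjusted), where the filter again removed the others before testing. The 4 and 10 became 0 and 2 against the minimum change (1 and 8 unadjusted), 1 and 5 at 0.01, and 7 and 12 with array weights. Leaving out 1 array gave 1 to 8 higher and 5 to 10 lower list genes. Over all genes, 1227 higher and 1086 lower became 478 and 400 above background, 270 and 153 against the minimum change, 449 and 419 at 0.01, and 1877 and 1518 with array weights. Without 1 array they were 609 to 1318 higher and 531 to 1043 lower. Same-numbered deviations correlated at -0.11, 0.06 and -0.11. The arrays that stood apart on the second component carry different replicate numbers, which could hide a pairing. These correlations therefore cannot decide whether replicate numbers paired the cultures. With the replicate block the members higher and lower were 2 and 7, the list genes 2 and 8, and all genes 744 and 644. Low signal limits the rest, since 11 of the 81 members had a group mean above background, and differences in the others cannot be given as folds.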

Other observations

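The median genomic span of the members, taken from RefSeq for 78 of 81 (96.3%), differed by call as a description chosen after the data were seen, with no test. The 8 members that fell had a median span of 52.6 kb (10.7 to 178 kb). The 6 that rose had a median of 30.2 kb (2.11 to 332 kb), and the members that did not pass had a median of 21.8 kb (1.6 to 523 kb). The range of those that did not pass contains the ranges of those that fell and rose.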
